A study of Mus musculus with 6 samples.

Results

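The mRNAs of 10 genes of hepatic insulin-FOXO signaling and of pyruvate dehydrogenase (PDH) kinases, *Insr*, *Irs1*, *Irs2*, *Pik3r1*, *Akt2*, *Foxo1*, *Foxo3*, *Grb10*, *Pdk2* and *Pdk4*, were compared between fasted livers with and without *Pak4* in hepatocytes. The genes were chosen by name for their place in the pathway, and all 10 were found among the 45777 genes of the table. Livers of C57BL/6 males aged 8 weeks, taken after 24 h without food, gave 1 bulk RNA-Seq library per mouse. The 3 WT mice were *Pak4* flox/flox, and the 3 LKO (liver-specific knockout) mice carried Alb-Cre besides *Pak4* flox/flox. WT mice were littermates that carried the same floxed alleles without Cre, so that effects of Cre recombinase and of the deletion cannot be told apart. Cre made from the albumin promoter acts in hepatocytes, and the paper describes the knockout as specific to them. *Pak4* in the other cells of the liver was not measured apart. Every value is a level in the fasted state.

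Insulin binds the insulin receptor, which phosphorylates the adaptors IRS1 and IRS2. These recruit PI3 kinase, whose lipid product activates AKT, and AKT keeps the FOXO transcription factors out of the nucleus. When insulin is low, as in fasting, FOXO factors enter the nucleus and switch on genes of fasting metabolism. In the liver, *Irs2* mRNA is known to rise in fasting and to fall after feeding, and the *Irs2* promoter is a known target of FOXO factors and, through an E-box, of TFE3. PDH kinases phosphorylate the PDH complex and so keep pyruvate from being oxidized while fatty acids supply energy, and *Pdk4* is the kinase gene best known for its rise in fasting.

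*Irs2* and *Pdk4* were about 4 times as high in LKO as in WT livers after scaling of the counts, at 4.08-fold and 3.86-fold, and *Pik3r1* was 2.17-fold lower. The other 7 genes did not pass the test. The rise of *Irs2* rested largely on LKO mouse 3, that of *Pdk4* less so, and the fall of *Pik3r1* was called under each of 22 alternative settings.

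Every fold change between the genotypes depends on how the libraries are scaled. Total counts were 45934632 to 59576437 per mouse. In LKO mice, 7SL RNA took 11.2 to 15.8% of the counts, against 4.55 to 5.24% in WT mice, and protein-coding genes took 77.3 to 80.7% against 88.5 to 89.6%. The main values are CPM (counts relative to a common library size) after scaling by edgeR's TMM method, with factors of 1.28 to 1.43 in WT and 0.639 to 0.816 in LKO mice. On this scale the median log2 fold change (LKO over WT) of the 18636 genes tested was −0.04. With total counts in place of TMM it was −0.90, and with limma on log2(TPM + 1) it was −0.79, so that most genes then read as lower in LKO mice. Total counts over protein-coding genes alone, which leave 7SL out, gave a median of −0.79 for 13858 genes. The part of 7SL in the difference between the scales was not tested further. The aim of the comparison was to see what loss of hepatic PAK4 changes in fasted liver. *Pak4* itself, on chromosome 7 from 28558819 to 28598184, had 268, 210 and 271 counts in WT mice 1 to 3, in that order, against 85, 52 and 149 counts in LKO mice. Its scaled levels were 3.59, 3.21 and 4.10 CPM in WT and 1.93, 1.49 and 3.22 CPM in LKO mice, so that LKO mouse 3 reached into the WT range. The log2 fold change of *Pak4* was −0.71 (standard error, SE, 0.31; adjusted p = 0.10), where p comes from the quasi-likelihood test of edgeR and is adjusted over all genes tested by the Benjamini-Hochberg method, here and throughout, and −1.08 without LKO mouse 3 (adjusted p = 0.015). *Pak4* overlaps *Samd4b* on the same strand, and reads of the shared part could be split between them. LKO mouse 3 also stood apart for the signaling genes, with the highest value of the LKO mice for 8 of the 10, whereas it was the highest for 37.6% of the 12999 genes whose mean reached 1 CPM.

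The promoters of the 3 genes that passed the test, and of *Irs1* as the paralog of *Irs2*, are shown as the 150 bases before the RefSeq start site in GRCm38.p6 (mm10), 5′ to 3′ on the strand of the gene. Capitals mark matches to the motifs searched on both strands.
*Irs2* (chr8:11008930-11009079, minus strand): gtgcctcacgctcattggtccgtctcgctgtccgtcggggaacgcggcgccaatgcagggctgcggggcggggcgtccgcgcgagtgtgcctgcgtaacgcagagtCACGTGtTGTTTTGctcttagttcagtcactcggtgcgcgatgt
*Irs1* (chr1:82291440-82291589, minus strand): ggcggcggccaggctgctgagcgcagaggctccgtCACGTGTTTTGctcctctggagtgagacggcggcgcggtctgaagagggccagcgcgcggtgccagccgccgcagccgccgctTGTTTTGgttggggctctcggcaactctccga
*Pdk4* (chr6:5496279-5496428, minus strand): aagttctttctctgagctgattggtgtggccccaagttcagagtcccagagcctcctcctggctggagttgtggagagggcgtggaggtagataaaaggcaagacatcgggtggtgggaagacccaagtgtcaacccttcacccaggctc
*Pik3r1*, the first of its start sites (chr13:101768218-101768367, minus strand): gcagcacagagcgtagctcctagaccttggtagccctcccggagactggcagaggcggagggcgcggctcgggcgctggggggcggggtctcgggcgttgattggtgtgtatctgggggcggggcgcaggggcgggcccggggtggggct

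The window searched ran from 250 bases before to 50 bases after each start site, and 9 of the 10 genes had at least 1 such window in the RefSeq table, 15 windows in all. The motifs were GTAAACA (forkhead), CAAAACA (insulin response), TGACGTCA (cAMP response), AGGTCA (nuclear receptor), CACGTG (E-box) and the sterol response element of the LDL receptor gene. In the *Irs2* promoter an E-box at −44 was followed by TGTTTTG, which is CAAAACA read on the other strand, at −37. The *Irs1* promoter held the same letters, with CACGTG at −115 overlapping TGTTTTG at −111 and a further TGTTTTG at −32. The only other match was CACGTG at −126 of *Pdk2*, and the windows of *Pdk4* and *Pik3r1* held none of the 6 motifs. Among all 32851 promoter windows of the table, 6.28% held CAAAACA and 7.15% held CACGTG on either strand. GTAAACA stood in 3.65%, TGACGTCA in 1.79%, AGGTCA in 16.3% and the sterol response element in 0.0913% of them. *Irs2* and *Irs1* thus shared motif letters, and their mRNA levels are given next to each other below. With TMM scaling, LKO mice 1 and 2 lay above the WT range for *Irs2* and below it for *Irs1*. Without LKO mouse 3 the change of *Irs2* did not pass (edgeR, adjusted p = 0.14).

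*Insr* (chromosome 8, 3150922 to 3279649), the gene of the receptor itself, was at 111, 129 and 131 CPM in WT livers against 128, 136 and 160 CPM in LKO mice. The ranges of the genotypes overlapped, and the log2 fold change was 0.19 (SE 0.16; edgeR, adjusted p = 0.37).

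*Irs2* (chromosome 8, 10984681 to 11008929), the adaptor gene that responds to fasting, had 620, 186 and 301 counts in WT mice, compared with 464, 292 and 2091 counts in LKO mice. Scaled, this was 8.32, 2.84 and 4.55 CPM in WT and 10.5, 8.37 and 45.2 CPM in LKO mice. All LKO values lay above all WT values, but LKO mouse 2 exceeded WT mouse 1 only slightly, and LKO mouse 3 was 4.78 times the mean of the other LKO mice. This was a log2 fold change of 2.03 (SE 0.66; edgeR, adjusted p = 0.039). Without LKO mouse 3 it was 0.85 (adjusted p = 0.14), without WT mouse 2 it was 1.71 (adjusted p = 0.13) and without WT mouse 3 it was 1.92 (adjusted p = 0.12, all from the same edgeR test), so that the call needed each of these mice. With total counts the log2 fold change was 1.21 (edgeR, adjusted p = 0.15), and on the log2(TPM + 1) scale it was 0.20 (limma, adjusted p = 0.76).

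*Irs1* (chromosome 1, 82233105 to 82291439), the other main IRS adaptor of the liver, was at 30.6, 31.7 and 23.5 CPM in WT livers against 20.7, 12.1 and 33.8 CPM in LKO mice. LKO mice 1 and 2 lay below the WT range and LKO mouse 3 above it. On the log2 scale the change was −0.37 (SE 0.33; edgeR, adjusted p = 0.41), and −0.80 without LKO mouse 3 (edgeR, adjusted p = 0.040).

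*Pik3r1* (chromosome 13, 101680761 to 101768217) encodes the p85α regulatory subunit of PI3 kinase and its shorter forms, which hold the catalytic subunit and bind phosphorylated IRS proteins. It had 8590, 7168 and 6662 counts in WT livers against 2315, 1869 and 2020 counts in LKO mice. The scaled levels were 115, 110 and 101 CPM in WT and 52.6, 53.6 and 43.7 CPM in LKO mice. The groups were far apart, and the spread within each was small, with a coefficient of variation of 6.73% in WT and 10.9% in LKO mice. The log2 fold change was −1.12 (SE 0.15; edgeR, adjusted p = 8.2e-04). It stayed between −1.18 and −1.03 when each mouse was left out in turn, and over all 22 alternatives it ran from −2.63 to −0.94, each of them called lower.

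*Akt2* (chromosome 7, 27591552 to 27640826), the AKT gene best known for insulin action in liver, was at 38.3, 33.2 and 38.1 CPM in WT livers against 34.5, 36.2 and 32.6 CPM in LKO mice. The values of the genotypes were interleaved and spread by only 5.31% of the mean in LKO mice. The fitted log2 fold change was −0.08 (SE 0.13; edgeR, adjusted p = 0.64), and −0.95 with total counts (edgeR, adjusted p = 9.6e-04).

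*Foxo1* (chromosome 3, 52268337 to 52350109), the main FOXO factor of hepatic glucose production, was at 10.6, 11.8 and 14.9 CPM in WT mice. In LKO mice it was at 14.0, 15.9 and 38.0 CPM. LKO mouse 1 lay inside the WT range and LKO mouse 3 at 2.55 times the mean of the other LKO mice. Its log2 fold change was 0.87 (SE 0.36; edgeR, adjusted p = 0.091). It was 0.27 without LKO mouse 3 (adjusted p = 0.30) and 1.12 without LKO mouse 1 (adjusted p = 0.037), which passed. DESeq2 also called it higher (adjusted p = 0.032), beside 20.9% of all genes, as did edgeR with a correction for gene length (1.01, adjusted p = 0.048), beside 19.9%, whereas total counts gave 0.03.

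*Foxo3* (chromosome 10, 42181845 to 42276695), a FOXO factor that acts on many of the same genes, was at 39.7, 36.7 and 48.6 CPM in WT livers against 25.7, 29.3 and 74.7 CPM in LKO mice. LKO mice 1 and 2 lay below every WT mouse and LKO mouse 3 above every WT mouse. The log2 fold change of 0.05 (SE 0.38; edgeR, adjusted p = 0.92) thus averaged opposite values, and without LKO mouse 3 it was −0.60 (edgeR, adjusted p = 0.025).

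*Grb10* (chromosome 11, 11930499 to 12037428) encodes an adaptor that binds the insulin receptor and dampens its signal. It was at 7.46, 7.81 and 5.43 CPM in WT livers against 5.16, 5.62 and 8.35 CPM in LKO mice. The ranges overlapped, with a log2 fold change of −0.11 (SE 0.24; edgeR, adjusted p = 0.74).

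*Pdk4* (chromosome 6, 5483351 to 5496278), the fasting-induced PDH kinase, had 475, 118 and 255 counts in WT livers against 402, 417 and 1172 counts in LKO mice. The scaled levels were 6.37, 1.80 and 3.86 CPM in WT and 9.13, 12.0 and 25.3 CPM in LKO mice. Every LKO value lay above every WT value, and LKO mouse 3 was again the highest, at 2.40 times the mean of the other LKO mice. The log2 fold change was 1.95 (SE 0.50; edgeR, adjusted p = 0.016). Without LKO mouse 3 it was 1.39 (edgeR, adjusted p = 0.043), and it lost the call only without WT mouse 3 among the mice left out in turn (1.90, edgeR, adjusted p = 0.058). With total counts it was 1.11 (edgeR, adjusted p = 0.087), and on the log2(TPM + 1) scale 0.31 (limma, adjusted p = 0.56).

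*Pdk2* (chromosome 11, 95026258 to 95041371), a PDH kinase that liver makes in the fed state too, was at 8.19, 8.47 and 11.1 CPM in WT livers against 5.98, 3.93 and 8.65 CPM in LKO mice. LKO mouse 3 alone lay inside the WT range. On the log2 scale the change was −0.58 (SE 0.29; edgeR, adjusted p = 0.14), and −0.90 without LKO mouse 3 (edgeR, adjusted p = 0.026).

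**Figure D1:**
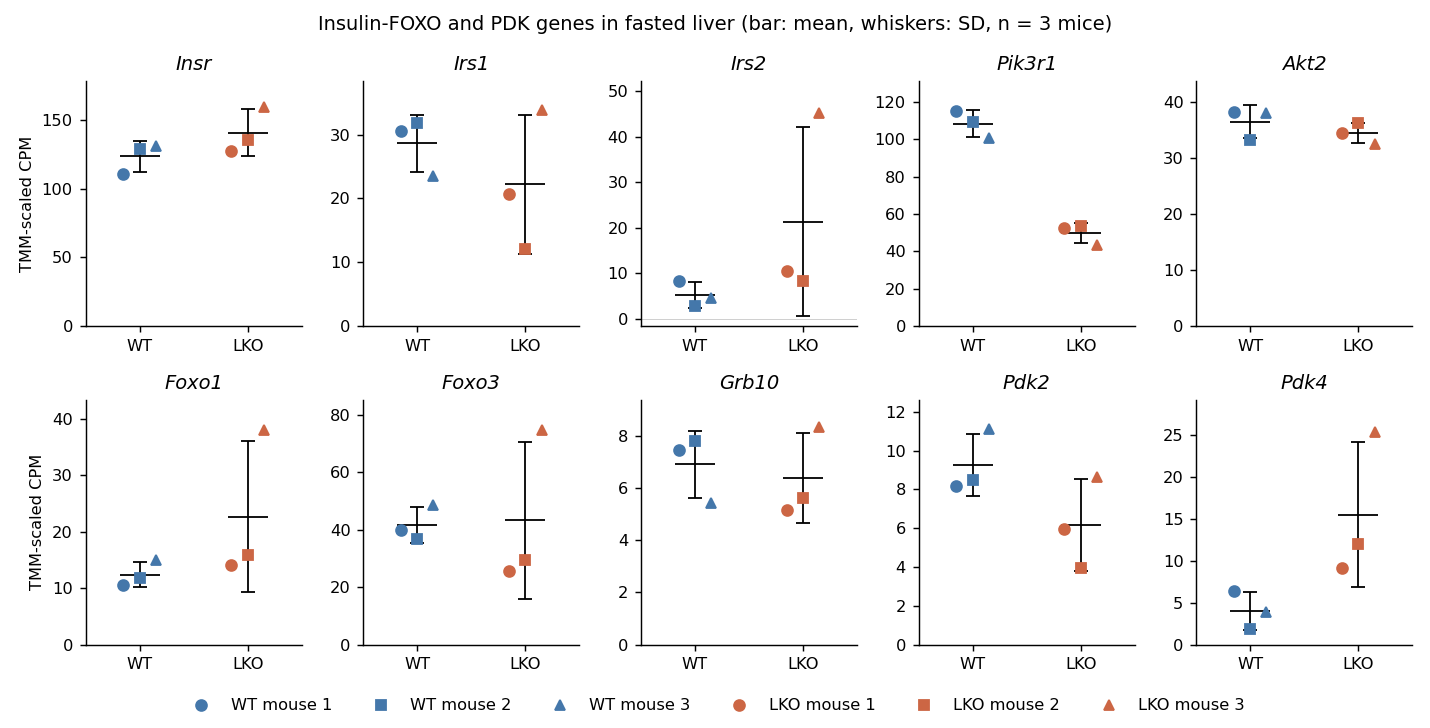
TMM-scaled CPM (y axis, linear, 1 panel per gene) of the 10 genes in 3 WT mice (blue) and 3 LKO mice (orange), with 1 symbol per mouse number, the mean as a bar and the SD as whiskers. *Pik3r1* separates the genotypes with little spread, whereas LKO mouse 3 (triangle) stands far above the other LKO mice for *Irs2* (45.2 CPM), *Foxo1* (38.0 CPM), *Foxo3* (74.7 CPM) and *Pdk4* (25.3 CPM).

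Counted together, 3 of the 10 genes were called (2 higher and 1 lower), beside 40.1% of all 18636 genes tested, 19.6% higher and 20.5% lower. Their median log2 fold change was −0.02, with 5 values above and 5 below 0, beside −0.04 over all genes tested. The CPM of the genotypes did not overlap for 3 genes, beside 54.0% of all genes tested. Without LKO mouse 3, *Pdk4* was called higher and *Irs1*, *Pik3r1*, *Foxo3* and *Pdk2* lower, beside 18.9% and 20.3% of all genes. With total counts, *Insr*, *Irs1*, *Pik3r1*, *Akt2*, *Grb10* and *Pdk2* were called lower and 0 genes higher, beside 51.4% lower and 6.26% higher of all genes. With limma on log2(TPM + 1), *Foxo3* joined these 6, beside 67.2% of all genes called lower and 2.14% higher. *Irs2*, *Pdk4* and *Foxo1* were the members that neither of these scales called lower.

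**Figure D2:**
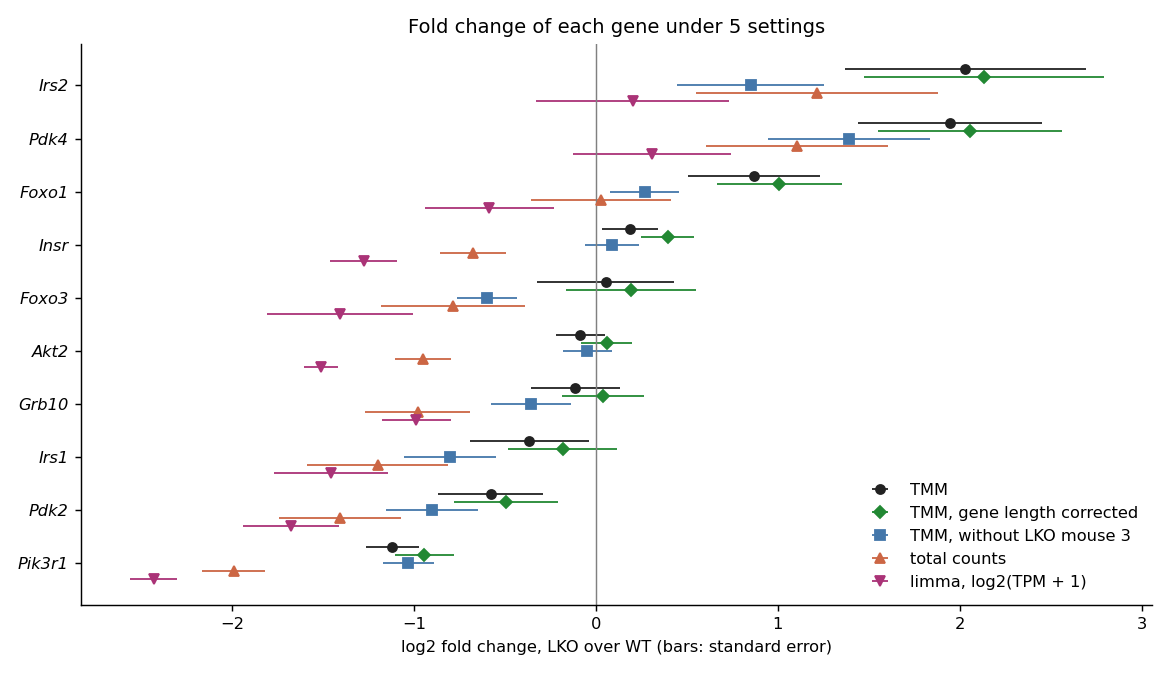
Log2 fold change of LKO over WT (x axis) with its standard error (bars) for each of the 10 genes under 5 settings. *Pik3r1* lies left of 0 in all 5 (−2.43 to −0.94 here), *Irs2* and *Pdk4* lie right of 0 in all 5, and for each of the 10 genes the total-count and log2(TPM + 1) values lie to the left of the TMM value.

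Ratios of paralogs within 1 mouse do not depend on the scaling of the libraries, because both counts come from the same library. The count of *Irs2* over that of *Irs1* was 0.272, 0.0898 and 0.194 in WT livers against 0.508, 0.694 and 1.34 in LKO mice. The LKO ratio was 4.64-fold higher, and the fold stayed between 3.39 and 5.90 when each mouse was left out in turn. In LKO mouse 3, *Irs2* counts exceeded those of *Irs1*, which was the case in no other mouse.

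The count of *Pdk4* over that of *Pdk2* was 0.778, 0.214 and 0.347 in WT livers against 1.53, 3.04 and 2.93 in LKO mice, 6.18-fold higher in LKO mice (4.59 to 8.76 with a mouse left out). *Pdk2* thus had the larger count in every WT mouse and *Pdk4* in every LKO mouse. Here LKO mouse 3 did not stand apart from LKO mouse 2.

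The ratio of *Foxo1* to *Foxo3* was 0.266, 0.321 and 0.307 in WT livers against 0.545, 0.541 and 0.509 in LKO mice. It was 1.79-fold higher in LKO mice (1.70 to 1.86 with a mouse left out) and nearly equal among them, although LKO mouse 3 had more of both mRNAs. The ratio thus separated the genotypes, although neither gene passed the test by its level.

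The ratio of *Grb10* to *Grb14*, which encodes a related inhibitor of the insulin receptor, was 0.505, 0.536 and 0.306 in WT and 0.157, 0.139 and 0.177 in LKO mice. The ratio of *Insr* to *Igf1r*, the receptor gene for IGF1, was 38.1, 27.5 and 39.4 in WT and 17.8, 22.6 and 22.1 in LKO mice. The ratio of *Pik3r1* to *Pik3r2*, the gene of the p85β subunit, was 24.6, 19.1 and 16.9 in WT and 16.1, 14.7 and 10.9 in LKO mice. All 3 of these ratios were lower in LKO mice without overlap, with a log2 difference of −1.47, −0.74 and −0.54, and the groups came closest for *Pik3r1* over *Pik3r2*.

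The ratio of *Akt2* to *Akt1* was 2.13, 2.12 and 1.93 in WT and 2.33, 2.12 and 2.14 in LKO mice. Its log2 difference was 0.10, between 0.05 and 0.12 with a mouse left out (two-sided exact permutation test, p = 0.2). For each of the other 6 ratios the same exact test gave p = 0.1, the smallest that 3 against 3 mice allow, and 0.117 after Benjamini-Hochberg adjustment over the 7 ratios, so that none could pass a threshold of 0.05. How often ratios of other gene pairs separate the genotypes was not computed. By CPM, 54.0% of all single genes tested did so. A ratio of genes of unequal length can still move with a trend in length. When the genes tested were split by length into 10 groups of like size, the median log2 fold change was 0.53 in the shortest and −0.16 in the longest. With the correction for gene length, the log2 fold changes were 2.13 for *Irs2* and −0.18 for *Irs1*, 2.06 for *Pdk4* and −0.49 for *Pdk2*, and 1.01 for *Foxo1* and 0.19 for *Foxo3*.

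**Figure D3:**
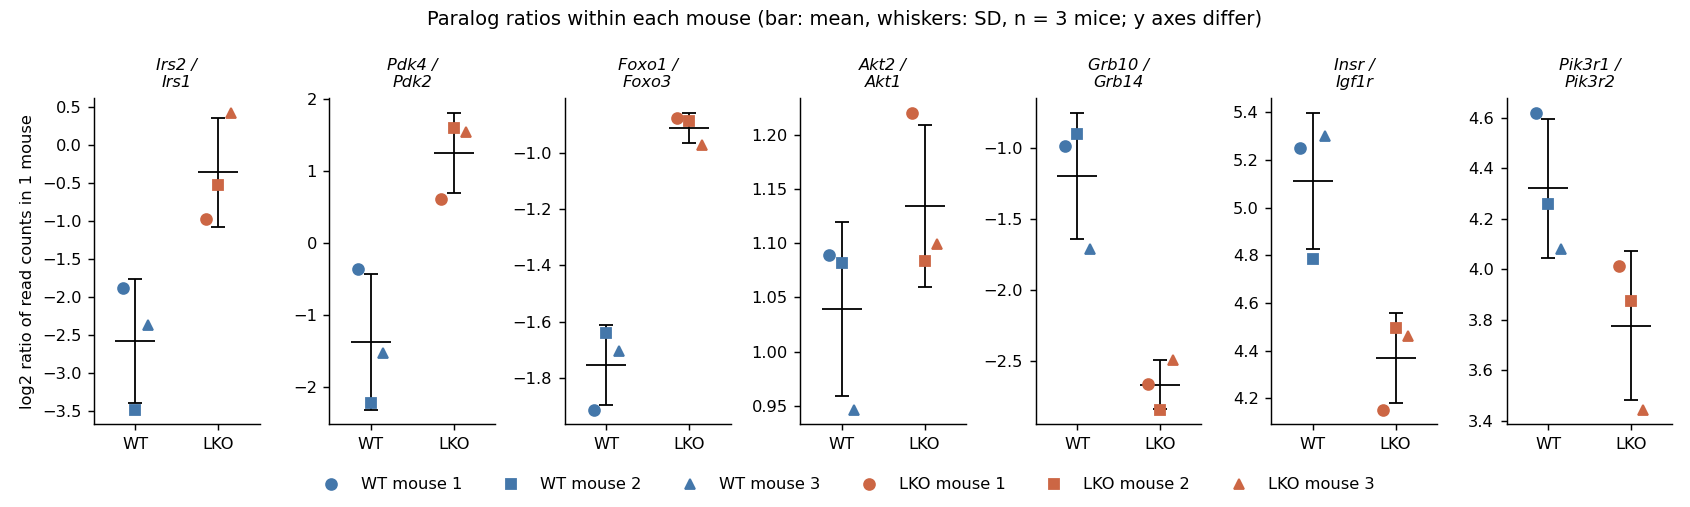
Log2 ratio of the read counts of paralogs within 1 mouse (y axes differ between panels) in 3 WT and 3 LKO mice, with the mean (bar) and SD (whiskers). The genotypes do not overlap in 6 of 7 panels, with higher LKO ratios for *Irs2*/*Irs1*, *Pdk4*/*Pdk2* and *Foxo1*/*Foxo3* and lower ones for *Grb10*/*Grb14*, *Insr*/*Igf1r* and *Pik3r1*/*Pik3r2*, and they overlap for *Akt2*/*Akt1*. The share of other gene pairs without overlap was not computed, and 54.0% of all single genes tested did not overlap by CPM.

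Levels of different genes were compared on the TPM scale, which divides by length. In WT mice the mean was 30.6 ± 3.38 TPM (SD, n = 3) for *Pik3r1* and 25.9 ± 2.85 TPM for *Insr*, and their ranges overlapped. *Akt2* followed at 17.4 ± 1.41 TPM, *Foxo3* at 11.9 ± 0.877 TPM and *Pdk2* at 7.99 ± 1.01 TPM, each apart from the gene before it. *Irs1* at 6.18 ± 1.30 TPM overlapped with *Pdk2* and with *Foxo1* at 4.37 ± 0.622 TPM. *Grb10* at 2.68 ± 0.642 TPM, *Pdk4* at 2.25 ± 1.27 TPM and *Irs2* at 1.50 ± 0.792 TPM closed the order, each overlapping with its neighbor, with *Foxo1* separate above them.

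In LKO mice *Insr* stood first at 10.3 ± 2.56 TPM (SD, n = 3), apart from *Akt2* at 5.47 ± 0.480 TPM. *Pik3r1* moved behind both, to 4.87 ± 0.724 TPM. From *Akt2* downward each gene overlapped with the next, in the order *Pik3r1*, *Foxo3* (4.46 ± 3.33 TPM), *Pdk4* (3.14 ± 2.12 TPM), *Foxo1* (2.87 ± 2.03 TPM), *Irs2* (2.29 ± 2.42 TPM), *Pdk2* (1.92 ± 0.971 TPM), *Irs1* (1.73 ± 1.05 TPM) and *Grb10* (0.859 ± 0.350 TPM). *Pdk4* and *Irs2* thus stood above their paralogs *Pdk2* and *Irs1* by their means in LKO mice and below them in WT mice. For *Irs2* this order of the means rested on LKO mouse 3, since its TPM were 0.684, 0.937 and 1.81 times those of *Irs1* in LKO mice 1, 2 and 3. *Pdk4* was at 1.01, 2.00 and 1.94 times the TPM of *Pdk2* in these mice. TPM of the genotypes did not overlap for 7 of the 10 genes, all lower in LKO mice, beside 74.9% of all genes tested, and overlapped for *Irs2*, *Foxo1* and *Pdk4*.

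**Figure D4:**
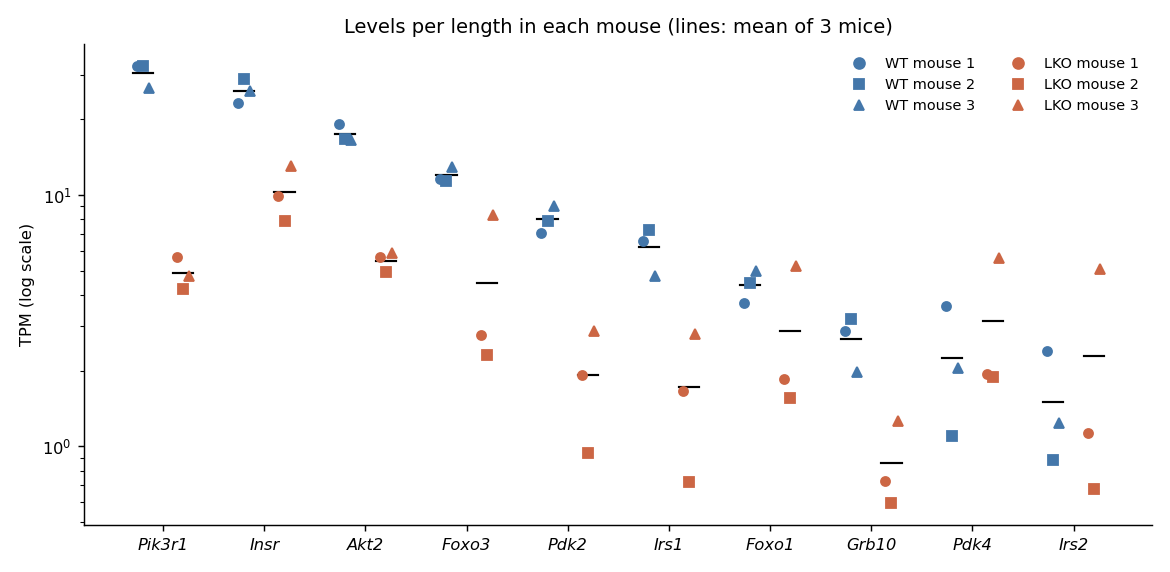
TPM (y axis, log scale) of the 10 genes, ordered by their WT mean, with 1 symbol per mouse and a line at the mean of 3 mice. WT means fall from 30.6 TPM for *Pik3r1* to 1.50 TPM for *Irs2*, and LKO values lie lower for 7 genes and overlap with WT values for *Foxo1*, *Pdk4* and *Irs2*.

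The rest of the pathway was taken from lists by role, which together hold 117 tested genes besides the 10. Of these, 21 were called higher and 31 lower, beside 19.6% and 20.5% of all genes tested, and 65 did not pass. Their median log2 fold change was −0.06. With total counts, 8 were called higher and 77 lower, beside 6.26% and 51.4% of all genes. Without LKO mouse 3, 20 were called higher and 35 lower, beside 18.9% and 20.3%. Unless stated otherwise, the counts of the single lists below are with TMM, beside 19.6% higher and 20.5% lower of all genes tested. These single-list counts, that of the FOXO targets included, also hold those of the 10 genes that stand in a list. The insulin genes *Ins1* and *Ins2* had 0 counts in every liver.

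Among 12 tested receptors and adaptors, 2 were called higher, *Irs2* and *Igf1r*, 1 was lower, *Grb2*, and 9 did not pass (median log2 fold change −0.14). *Igf1r*, which hepatocytes make little of, was at 2.91, 4.68 and 3.33 CPM in WT and 7.16, 5.99 and 7.24 CPM in LKO livers, or a log2(LKO/WT) of 0.90 with TMM (edgeR, adjusted p = 0.014) and 0.04 with total counts. Its adjusted p was 0.051 without WT mouse 3. *Grb2*, the adaptor that leads to RAS, had a log2 fold change of −0.66 (edgeR, adjusted p = 0.029).

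Among 13 PI3 kinase subunits, 6 were lower and 1 higher (median −0.45), beside 20.5% lower and 19.6% higher of all genes tested. With total counts 10 were lower and 1 higher, beside 51.4% and 6.26%. Besides *Pik3r1*, the largest falls were those of *Pik3cd*, a catalytic subunit best known from leukocytes, at −1.04, and of *Pik3c3*, the kinase of autophagy, at −0.72. Both were called lower in every setting run. *Pik3r2* had a log2 fold change of −0.58 (edgeR, adjusted p = 0.045), and *Pik3r3*, a further regulatory subunit, −0.45 (adjusted p = 0.25). *Pik3c2a*, a class II kinase that does not pair with p85, was the subunit called higher, at 124, 132 and 120 CPM in WT and 355, 461 and 402 CPM in LKO livers, or a log2(LKO/WT) of 1.69 (edgeR, adjusted p = 3.3e-04), and 0.81 with total counts.

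Of 17 genes around AKT, 2 were higher and 3 lower (median −0.08). *Bad*, an apoptosis gene whose protein AKT phosphorylates, was at 0.62 with TMM but −0.25 with total counts. The lower genes were *Mlst8* at −1.31 and *Mtor* at −1.27, both of the mTOR complexes, and *Tsc2*, which restrains mTORC1, at −1.12. *Akt1* had a log2 fold change of −0.18 (edgeR, adjusted p = 0.37). Of 16 FOXO factors and cofactors, 2 were higher and 6 lower (median −0.01). The 14-3-3 genes *Ywhah* (−1.26) and *Ywhag* (−1.22), whose proteins hold phosphorylated FOXO in the cytoplasm, and the kinase *Stk4* (−0.84) fell. *Sirt1*, a deacetylase of FOXO factors, was at 0.74 and the kinase *Stk3* at 0.56 with TMM, and at −0.12 and −0.32 with total counts. *Foxo4* was at 0.30 with TMM (edgeR, adjusted p = 0.24) and −0.55 with total counts, and *Foxo6* had too few counts to be tested.

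Among 22 brakes on insulin signaling, 4 were higher and 3 lower (median 0.01). *Grb14* was at 14.8, 14.6 and 17.8 CPM in WT and 32.8, 40.5 and 47.1 CPM in LKO mice. This was a log2 fold change of 1.35 (SE 0.18; edgeR, adjusted p = 7.7e-04) and 0.49 with total counts, also called, but −0.15 on the log2(TPM + 1) scale. *Trib2*, a pseudokinase, was at 1.31, and *Ptpn2*, a phosphatase of the insulin receptor, at 0.69 and at 0.49 without LKO mouse 3 (edgeR, adjusted p = 0.067). On the log2(TPM + 1) scale they were at −0.11 and −0.48. The lower genes were the AKT phosphatase gene *Phlpp2* (−0.88), the lipid phosphatase gene *Inppl1* (−0.68) and the kinase gene *Prkcd* (−0.65).

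Of 14 genes of the PDH complex and its regulators, 5 were higher and 1 lower (median 0.40), beside 19.6% higher and 20.5% lower of all genes tested. With total counts 3 were higher and 8 lower, beside 6.26% and 51.4%. Besides *Pdk4*, *Mpc1* of the mitochondrial pyruvate carrier was at 117, 90.3 and 120 CPM in WT and 486, 750 and 292 CPM in LKO livers, or a log2(LKO/WT) of 2.22 (edgeR, adjusted p = 0.0014), and 1.32 with total counts. *Pdp1*, a phosphatase that opposes the PDH kinases, was at 1.15, 1.47 and 1.06 CPM in WT and 3.29, 3.99 and 4.54 CPM in LKO livers, or a log2(LKO/WT) of 1.68 (adjusted p = 0.0015), and 0.81 with total counts. The other phosphatase gene, *Pdp2*, was at 24.3, 26.1 and 36.1 CPM in WT and 14.5, 13.3 and 15.7 CPM in LKO livers, or a log2(LKO/WT) of −0.99 (adjusted p = 0.0036). With TMM, both a kinase and a phosphatase of the complex thus rose, and the phosphatase gene with the larger counts fell. With limma on log2(TPM + 1), 0 of the 14 genes were called higher and 9 lower, beside 2.14% and 67.2% of all genes. The kinases *Pdk1* (−0.48, edgeR, adjusted p = 0.24) and *Pdk3* (0.48, adjusted p = 0.51, and −0.42 with total counts) did not pass.

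Of 26 genes that FOXO factors are known to switch on, 8 were higher and 3 lower (median 0.40), beside 19.6% and 20.5% of all genes. Without LKO mouse 3 the counts were 7 and 4, beside 18.9% and 20.3% of all genes, and with total counts 3 and 9, beside 6.26% and 51.4%. *Igfbp1*, which encodes a secreted IGF-binding protein and is repressed by insulin, was at 37.7, 1.68 and 14.2 CPM in WT and 127, 267 and 1924 CPM in LKO mice. For this gene, log2(LKO/WT) was 5.44 (SE 1.36; edgeR, adjusted p = 0.014), 3.46 without LKO mouse 3 (adjusted p = 0.026) and 5.27 without WT mouse 3 (adjusted p = 0.054). *Ppargc1a*, a coactivator of fasting genes, was at 8.62, 9.40 and 6.79 CPM in WT and 18.9, 18.0 and 110 CPM in LKO livers, or a log2(LKO/WT) of 2.56 (edgeR, adjusted p = 0.017). LKO mouse 3 again stood out, and without it the value was 1.16 (adjusted p = 0.0026). Without any 1 of the WT mice its adjusted p was 0.051 to 0.061. The log2 fold change of *Ppargc1a* was 1.73 with total counts (edgeR, adjusted p = 0.054) and 0.46 on the log2(TPM + 1) scale (limma, adjusted p = 0.57).

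*Bnip3*, a mitophagy receptor, was at 186, 182 and 208 CPM in WT and 575, 991 and 896 CPM in LKO livers, or a log2(LKO/WT) of 2.10. The gluconeogenic FOXO targets *G6pc* (−0.20, edgeR, adjusted p = 0.79) and *Pck1* (0.73, adjusted p = 0.13), singled out after their values were seen, did not pass. The 3 lower targets were the stress gene *Sesn3* (−1.57), catalase, *Cat* (−1.33), and *Mttp*, the lipid transfer gene of VLDL assembly (−0.67).

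All 9 genes that insulin is known to induce were called lower (median −3.50), beside 20.5% of all genes tested. All 9 were also lower with total counts, beside 51.4% of all genes, and with limma on log2(TPM + 1), beside 67.2%. Without LKO mouse 3 the 9 were lower too, beside 20.3%. *Fasn*, the fatty acid synthase gene, was at 661, 182 and 629 CPM in WT and 36.7, 36.5 and 15.5 CPM in LKO livers, or a log2(LKO/WT) of −4.05 (edgeR, adjusted p = 9.5e-04). *Pnpla3*, a lipid droplet lipase gene, had a log2 fold change of −4.67. For fasted livers the paper itself reports that genes of de novo lipogenesis did not differ significantly between WT and LKO mice. Its main text does not name these genes, and the difference from the values here was not tested.

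Leaving out 1 mouse ended the call of 13 of these genes named besides the 10. Besides *Igf1r*, *Igfbp1*, *Ppargc1a* and *Ptpn2*, these were *Bad* without WT mouse 2 (adjusted p = 0.061), *Mttp* without WT mouse 1 or 3 (at most 0.056), *Sirt1* without any 1 WT mouse (0.076 to 0.079) and *Stk3* without LKO mouse 2 or WT mouse 1 or 2 (0.056 to 0.063). *Grb2* (0.065 to 0.10) and *Phlpp2* (0.090 to 0.11) each lost it without any of 4 mice, and *Inppl1* (0.052 to 0.11), *Pik3r2* (0.056 to 0.13) and *Prkcd* (0.051 to 0.11) without any of 5, all but LKO mouse 3. The adjusted p of *Ptpn2* reached 0.090. The other genes named as called kept their call with any 1 mouse left out.

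**Figure D5:**
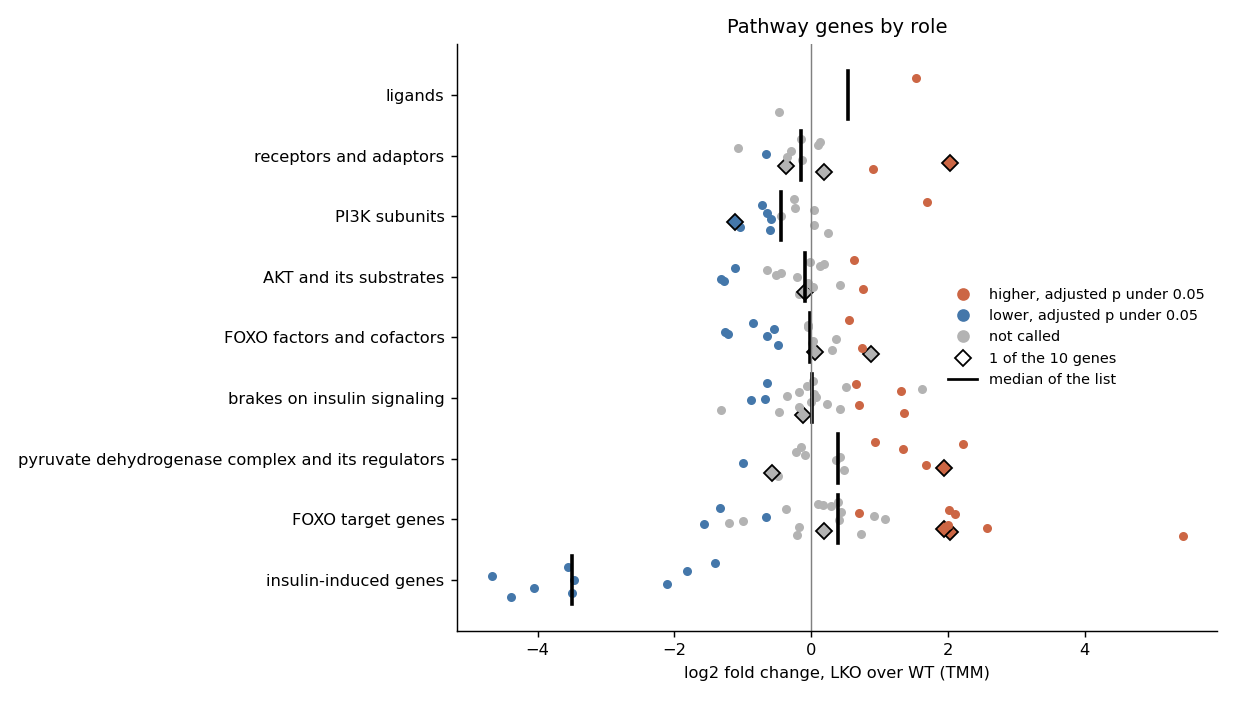
Log2 fold change of LKO over WT with TMM (x axis) for the tested genes of each pathway list (y axis), colored by the edgeR call, with diamonds for the 10 genes and a black line at the median of each list. Most lists spread on both sides of 0, the FOXO targets reach 5.44 for *Igfbp1*, and the 9 insulin-induced genes all lie left of 0 around a median of −3.50.

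Markers of liver cell types moved with genotype as well. The summed CPM of 8 hepatocyte markers were 43581 to 46933 in WT and 107285 to 130008 in LKO mice (3 higher and 1 lower of 8 tested), so that hepatocyte mRNAs were abundant in every library, and their TPM overlapped. The sums of 6 markers each were 227 to 271 against 398 to 422 CPM for endothelium (4 of 6 higher), 268 to 408 against 426 to 824 CPM for Kupffer cells and 279 to 328 against 569 to 824 CPM for stellate cells (each 2 higher and 1 lower of 6). On the TPM scale the sums of these 3 cell types overlapped between the genotypes, at 116 to 159 in WT against 81.7 to 125 in LKO mice for endothelium, 208 to 346 against 144 to 214 for Kupffer cells and 148 to 197 against 165 to 224 for stellate cells. Red blood cell markers were at 192 to 324 against 879 to 1633 CPM (2 higher and 1 lower of 5). Cholangiocyte markers were at 32.9 to 50.2 against 13.7 to 30.2 CPM (1 lower of 4 tested) and lymphocyte markers at 44.1 to 65.2 against 28.5 to 43.4 CPM (1 lower of 6). By TPM, red blood cell sums were 528 to 928 in WT against 1008 to 1971 in LKO mice, also without overlap. Cholangiocyte sums were 41.0 to 67.4 against 6.93 to 10.9 TPM and lymphocyte sums 20.4 to 34.1 against 4.79 to 6.68 TPM. Neither overlapped, on a scale where 74.9% of all genes tested lay lower in LKO mice. The adipocyte markers *Plin1* and *Lep* and the muscle markers *Acta1* and *Mb* had 0 counts in every library, as did *Cpa1* and *Pnlip* of the exocrine pancreas. The sums were 1.27 to 2.75 against 0.151 to 0.750 CPM for adipocytes (1 lower of 1 tested), at most 0.0432 CPM for muscle, and 6.05 to 8.46 against 4.06 to 6.97 CPM for pancreas (0 called of 1 tested). In bulk tissue, fewer cells of a type and less RNA per cell cannot be told apart, and the part of cell makeup in the values of the 10 genes was not tested. Nothing states that the mice of 1 genotype came from separate litters or days, and the p-values set the difference between the genotypes against the spread between these animals.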

How the data were processed

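The authors sequenced 1 liver library from each of 3 WT and 3 LKO mice. The submitters' processing notes name bcl2fastq 2.20.0, FastQC 0.11.7, HISAT2 2.1.0, Bowtie2 2.3.4.1, StringTie 2.1.3b and mm10. The methods describe a total RNA kit with removal of rRNA and the labels a kit that selects mRNA. The authors deposited read counts that were not normalized, with FPKM and TPM computed by the authors for each gene and mouse. Use of strand in counting is not given in the sources used here, so that reads of overlapping antisense genes cannot be told apart. Such genes are annotated at *Insr*, *Irs1*, *Irs2*, *Foxo1* and *Pdk2*. The gene at *Irs2* was given a mean of 0.667 counts in WT and 0 in LKO mice, and that at *Pdk2* 0 in both. Genes on the same strand are annotated at *Pik3r1* and *Foxo1*, where strand could not separate the reads.

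As in the methods, a gene was tested if at most 1 of the 6 mice had a count of 0. TMM-scaled counts were compared by genotype in R 4.3.3 with edgeR 4.0.16 (quasi-likelihood test), two-sided, with Benjamini-Hochberg adjustment and a threshold of 0.05. The common biological coefficient of variation was 0.254. Ratios of counts had 0.5 added to each count on the log2 scale and were compared with exact permutation tests. The alternatives were edgeR's exactTest (the test of the methods, there on log2 counts), DESeq2 1.42.0, other scalings and filters, a block for the replicate number, a gene length correction (lowess on the ratio of count to FPKM), limma 3.58.1 on log2(FPKM + 1), log2(TPM + 1) and log2(TPM + 0.1), and leaving out each mouse. Total counts over protein-coding genes were chosen after seeing the data. Scripts were tested on simulated data.

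The 10 genes and the pathway lists were chosen with earlier results of these data known. Named besides the 10 are *Pak4*, paralogs, and up to 3 higher and 3 lower called genes per list with the largest change and a mean of at least 1 CPM. Exceptions are given where they stand. Results for some single genes are not reported here, and these genes stay in the counts and figures.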

Additional observations from a re-analysis of the deposited data

How the results depend on the processing

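The main setting called 3 of the 10 genes, 2 higher and 1 lower. Total counts called 6 (0 higher, 6 lower), total counts over protein-coding genes 7 (1 higher, *Pdk4*, and 6 lower), limma on log2(FPKM + 1) 6 (0 higher, 6 lower), and limma on log2(TPM + 1) and on log2(TPM + 0.1) 7 each (0 higher, 7 lower). With a mouse left out, 1 to 5 genes were called, 0 to 3 of them higher and 1 to 4 lower. Of the pathway genes, 52 were called in the main setting, 85 with total counts, 83 with FPKM, 94 with log2(TPM + 1), 95 with log2(TPM + 0.1) and 35 to 55 with a mouse left out. These counts stand beside calls over all genes that also moved with the setting. Over all 18636 genes tested, 7476 were called, 49.0% of them higher, against 12918 with log2(TPM + 1) (3.09% higher), 13851 with log2(TPM + 0.1) and 5663 to 7309 with a mouse left out. Of the same 18636 genes, 10742 were called with total counts (10.9% of them higher) and 10407 with FPKM (10.1% higher). Total counts over protein-coding genes called 8406 of 13858 genes (12.1% higher).

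Settings that change the scaling turned the direction of several log2 fold changes that were above 0 with TMM. With total counts they were −0.67 for *Insr*, −0.78 for *Foxo3*, −0.55 for *Foxo4*, −0.42 for *Pdk3*, −0.25 for *Bad*, −0.12 for *Sirt1*, −0.32 for *Stk3* and −0.18 for *Ptpn2*. With total counts over protein-coding genes they were −0.50 for *Insr*, −0.62 for *Foxo3*, −0.37 for *Foxo4*, −0.25 for *Pdk3*, −0.070 for *Bad*, −0.14 for *Stk3* and −0.012 for *Ptpn2*. With FPKM they were −0.68 for *Insr*, −0.10 for *Foxo1*, −0.84 for *Foxo3*, −0.00077 for *Igf1r*, −0.37 for *Foxo4*, −0.12 for *Pdk3*, −0.24 for *Bad*, −0.17 for *Sirt1* and −0.30 for *Stk3*. With log2(TPM + 1) they were −1.28 for *Insr*, −0.59 for *Foxo1*, −1.41 for *Foxo3*, −0.15 for *Grb14*, −0.20 for *Igf1r*, −0.82 for *Foxo4*, −0.33 for *Pdk3*, −0.81 for *Bad*, −0.69 for *Sirt1*, −0.84 for *Stk3*, −0.11 for *Trib2* and −0.48 for *Ptpn2*. With log2(TPM + 0.1) they were −1.35 for *Insr*, −0.78 for *Foxo1*, −1.63 for *Foxo3*, −0.16 for *Grb14*, −0.51 for *Igf1r*, −1.20 for *Foxo4*, −0.91 for *Pdk3*, −0.89 for *Bad*, −0.83 for *Sirt1*, −0.97 for *Stk3*, −0.20 for *Trib2* and −0.55 for *Ptpn2*. The cause was not tested beyond the shift of the median of all genes in these settings. The gene length correction gave 0.059 for *Akt2* and 0.040 for *Grb10*, and 0.061 and 0.031 with a replicate block. With a mouse left out, *Grb10* ran from −0.36 without LKO mouse 3 to 0.020 without LKO mouse 1, and *Foxo3* from −0.60 without LKO mouse 3 to 0.32 without LKO mouse 1. The log2 ratio of mean TPM ran from −0.65 to 0.80 for *Irs2* and from −0.071 to 0.87 for *Pdk4* with a mouse left out. Replicate numbers gave no pairing: the correlations of same-numbered deviations were 0.00023, −0.039 and −0.056. A replicate block called the same number of the 10 genes, 3, and 47 pathway genes and 6431 genes in all, and gave −0.11 for *Foxo3*. Among the log2 fold changes of single named genes under the alternatives, 859 kept their direction and side of the threshold, 93 lost a call, 47 gained one and 56 turned direction. The 3 mice per genotype limit the precision, and exact tests cannot go below p = 0.1.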

Other observations

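Among 11668 protein-coding genes compared by Pearson's r of scaled levels over the 6 mice, the genes most like *Irs2* were *Ip6k2* (r = 0.995), *Rbm17* (r = 0.986) and *Pcmtd2* (r = 0.984). The log2 fold change was 1.25 for *Ip6k2* (edgeR, adjusted p = 0.043), 0.49 for *Rbm17* and 0.10 for *Pcmtd2*. The genes most like *Pik3r1* were *Lrrc39* (r = 1.00), *Laptm4b* (r = 0.999) and *Adrb3* (r = 0.999), with log2 fold changes of −2.86, −1.09 and −3.54. These values are a description of 6 libraries that share a scaling and fall into 2 genotypes, so that a gene separating the genotypes, or high in LKO mouse 3, scores high.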
